A study of Mus musculus with 12 samples.

Results

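The genes described are Egfr, which encodes the epidermal growth factor (EGF) receptor, its ligands Areg, Ereg, Hbegf, Tgfa, Btc, Epgn and Egf, and Errfi1, an inhibitor of the active receptor. They were looked up by symbol, and all 9 were found among the 23234 gene symbols listed for every library. RNA was sequenced from mouse ear skin in 12 libraries that form 4 groups of 3. The strain is given as C57BL/6J and the age as 8 to 12 weeks. Wild type (WT) ears were left untreated, received phosphate-buffered saline (PBS), or received 100 mg of Oxarol, an ointment with 2.5 µg of maxacalcitol, an analogue of active vitamin D3. Treated ears were sampled after 1 day. Oxarol was also applied to mice whose label reads K5-Cre;VDR f/f, here called VDRcKO_Oxarol. By this design the keratin 5 promoter drives Cre in basal keratinocytes. Floxed Vdr, the gene of the vitamin D receptor, is meant to be cut in these cells and their progeny, while other skin cells keep their receptor. The cut itself could not be checked here. No untreated or PBS-treated skin of this genotype was among the libraries, so a difference that the genotype makes without treatment cannot be told apart from a different response to Oxarol. PBS is not the ointment base, so base and active compound cannot be told apart either.

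The EGF receptor is a tyrosine kinase on the surface of keratinocytes, where it promotes proliferation, survival and wound closure and restrains inflammation. Its ligands are made as membrane-bound precursors that metalloproteases of the ADAM family release. The bound receptor signals through RAS and ERK, and this switches on early genes such as Fos and Egr1 as well as brakes on the pathway, among them Errfi1, the Sprouty proteins and the dual-specificity phosphatases. Topical vitamin D analogues bind the vitamin D receptor, which pairs with a retinoid X receptor on DNA, and Cyp24a1, which encodes the enzyme that breaks down active vitamin D, is its best known target.

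Values are FPKM, mapped fragments scaled to transcript length and to the size of the library, so that levels can be compared between genes. Depth was estimated from the step that 1 fragment makes in the low values. WT_PBS replicate 3 was the deepest, the other 8 wild type libraries held 6.54% to 21.5% of its fragments, and the 3 libraries labelled VDRcKO_Oxarol held 4.16% to 6.03%. Replicates 1, 2 and 3 of WT_Oxarol held 66.2, 599 and 458 FPKM of Cyp24a1, and it was at or below 0.372 FPKM in each of the other 9 libraries. The gene-level value of Vdr went against the genotype label. It was 23.6, 25.0 and 17.98 FPKM in the libraries labelled VDRcKO_Oxarol and 4.87 to 10.1 FPKM in the wild type, and since a gene-level sum does not separate the exons, it does not check the deletion. The first series of library codes holds replicates 1 and 2 of each wild type group, and the second holds replicate 3 of each wild type group and all libraries labelled VDRcKO_Oxarol. The labels do not call the series a batch, and within-series values of these 9 genes are given beside the main comparisons, where the first series has no labelled library and the second has 1 library of each wild type group.

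The receptor transcript showed no difference between groups beyond the spread of the libraries. Egfr was measured at 7.16, 9.66 and 8.00 FPKM in untreated skin, at 9.09, 8.63 and 9.12 FPKM after PBS, at 9.93, 7.41 and 8.19 FPKM after Oxarol, and at 8.10, 10.2 and 9.90 FPKM in the libraries labelled VDRcKO_Oxarol. The 4 groups overlapped throughout. The difference between WT_Oxarol and WT_PBS was -0.07 ± 0.13 (SE) on the log2(FPKM + 1) scale, with a 95% interval of -0.36 to 0.22 and an adjusted p of 0.999 in limma. The libraries labelled VDRcKO_Oxarol differed from WT_Oxarol by 0.13 ± 0.13, with an interval of -0.16 to 0.42 and an adjusted p of 0.509. Quantile normalization, which moved the median of all genes in this comparison from 0.08 to -0.04, gave -0.01, so no direction is read for Egfr. Within the first and second series the WT_Oxarol to WT_PBS difference was -0.04 and -0.14, and within the second the labelled libraries differed from WT_Oxarol by 0.17.

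Errfi1, which encodes the protein also known as MIG6 that binds the kinase domain of the active receptor and blocks it, was the most abundant of the genes in every group and its values did not overlap with those of the next gene in any group. It stood at 17.4, 23.5 and 28.5 FPKM in untreated skin, at 32.1, 30.9 and 28.7 FPKM after PBS, at 35.2, 38.8 and 21.5 FPKM after Oxarol, and at 43.6, 30.6 and 42.8 FPKM in the libraries labelled VDRcKO_Oxarol. The Oxarol libraries spanned the PBS range on both sides. The difference between WT_Oxarol and WT_PBS was 0.02 ± 0.23 (adjusted p = 1.00), and that between the libraries labelled VDRcKO_Oxarol and WT_Oxarol was 0.31 ± 0.23 (adjusted p = 0.371). All 3 PBS libraries lay above all 3 untreated libraries, by 0.41 ± 0.23 (adjusted p = 0.595). The series differed in Errfi1. Within the first series WT_Oxarol and WT_PBS differed by 0.23 and within the second by -0.40, and WT_PBS and untreated skin differed by 0.61 and 0.01. In the second series the labelled libraries differed from WT_Oxarol by 0.81 (adjusted p = 0.175).

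**Figure D1:**
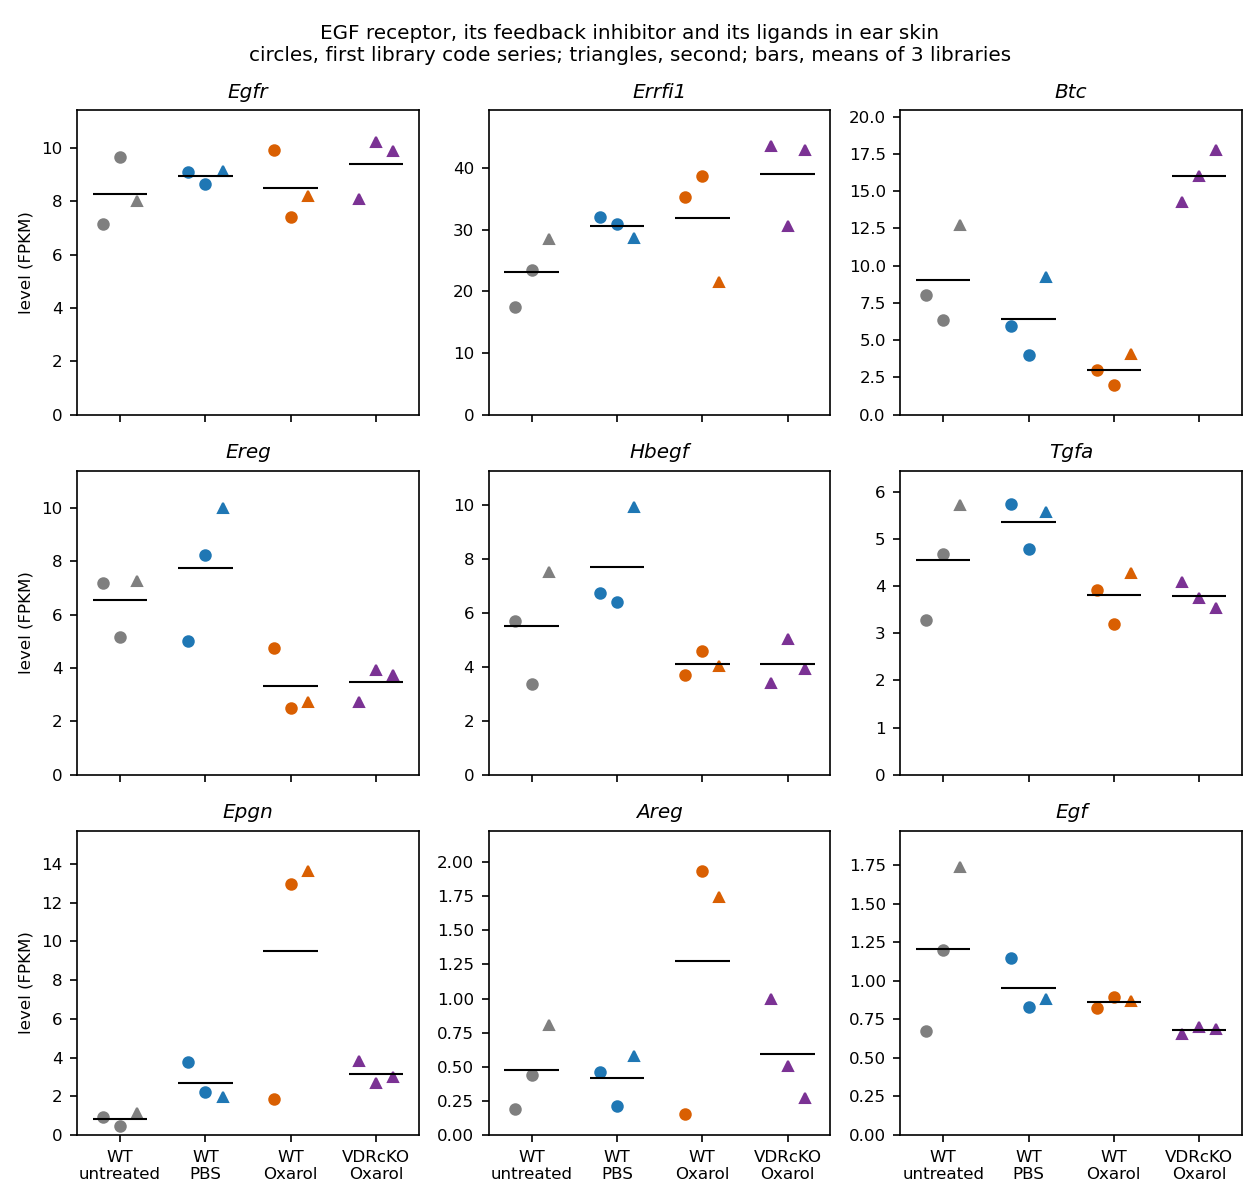
Level in FPKM (vertical axes from 0, a separate scale for each gene) in the 4 groups (horizontal axis). Each symbol is 1 library, circles mark the first and triangles the second series of library codes, and bars mark the means of 3 libraries. Egfr lay between 7.16 and 10.2 FPKM in all libraries, Btc was lowest after Oxarol in the wild type and highest in the libraries labelled VDRcKO_Oxarol, and Epgn exceeded 12 FPKM in 2 WT_Oxarol libraries alone.

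Epgn, Ereg, Areg and Btc follow each other in that order on mouse chromosome 5 with no other coding gene between them, in RefSeq's GRCm38.p6 annotation. Of the 9 genes, 7 had a promoter in RefSeq's table of that build, with 9 entries in all, and Ereg and Hbegf were not among them. The 250 bases before the start site are shown for Epgn, Areg and Btc, the neighbours on chromosome 5 with an entry. Of the 9 genes, they had the largest log2(FPKM + 1) differences in size between the ointment groups. Only that of Btc passed, and Areg was too low to be tested. The sequences are written 5′ to 3′ on the strand of the gene, with capitals for matches of 4 motifs searched on both strands. The nuclear receptor half-site was searched as AGGTCA, the cyclic AMP response element as TGACGTCA, the AP-1 site as TGACTCA and the TATA box as TATAAA, without overlap between the matches found.
Epgn (chr5:91027267-91027516, plus strand): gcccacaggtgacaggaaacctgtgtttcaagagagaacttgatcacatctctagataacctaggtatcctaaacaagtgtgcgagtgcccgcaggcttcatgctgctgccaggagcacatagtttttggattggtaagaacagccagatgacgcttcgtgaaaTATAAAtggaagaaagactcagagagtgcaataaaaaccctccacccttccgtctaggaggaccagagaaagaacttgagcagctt
Areg (chr5:91139349-91139598, plus strand): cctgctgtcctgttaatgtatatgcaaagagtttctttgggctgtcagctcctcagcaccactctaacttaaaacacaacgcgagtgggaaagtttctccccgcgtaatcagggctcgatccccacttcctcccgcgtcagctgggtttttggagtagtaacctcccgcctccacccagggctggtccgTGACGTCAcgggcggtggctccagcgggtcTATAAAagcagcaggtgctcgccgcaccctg
Btc (chr5:91402995-91403244, minus strand): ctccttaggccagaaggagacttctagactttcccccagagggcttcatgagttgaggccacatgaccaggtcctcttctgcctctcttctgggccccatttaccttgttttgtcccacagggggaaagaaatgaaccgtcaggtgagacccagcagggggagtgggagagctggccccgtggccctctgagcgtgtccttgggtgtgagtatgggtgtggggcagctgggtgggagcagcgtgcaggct

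The Epgn promoter held TATAAA at positions -86 to -81 from the start site. The Areg promoter held TGACGTCA at -61 to -54 and TATAAA at -31 to -26, and none of the 4 motifs was found for Btc. A promoter of Errfi1 held the same pair as Areg, with TGACGTCA at -51 to -44 and TATAAA at -28 to -23. Among all 32851 promoters of the table, taken as windows of 300 bases that end 50 bases after the start site, 1.79% held TGACGTCA, 13.6% held TATAAA, 5.2% held TGACTCA and 16.3% held AGGTCA. The half-site was found once in the 9 entries of these genes, at 34 to 39 after another start site of Errfi1. A match is a description of these letters only.

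Btc encodes betacellulin, a ligand of both the EGF receptor and ERBB4, and it was the gene with the clearest difference between the ointment groups. It was measured at 8.04, 6.38 and 12.7 FPKM in untreated skin, at 5.93, 4.01 and 9.22 FPKM after PBS, at 2.97, 1.99 and 4.08 FPKM after Oxarol in the wild type, and at 14.3, 16.0 and 17.8 FPKM in the libraries labelled VDRcKO_Oxarol. Each of the 3 labelled libraries lay above all 9 wild type libraries, and the Oxarol libraries lay below all untreated libraries but overlapped with PBS. The means were 16.0 ± 1.75 (SD, n = 3) and 3.01 ± 1.05 FPKM (SD, n = 3) in the ointment groups, a 5.32-fold ratio. On the log2(FPKM + 1) scale Btc was higher by 2.11 ± 0.29 (95% interval 1.47 to 2.76, limma adjusted p = 0.00558) in the libraries labelled VDRcKO_Oxarol. It was the only 1 of 8 tested genes of the set that passed in this comparison, in which 13.1% of all 14059 genes tested passed.

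Set against WT_PBS, the libraries labelled VDRcKO_Oxarol held 2.51 times as much Btc, a difference of 1.26 ± 0.29 (adjusted p = 0.0200). After Oxarol in the wild type Btc differed from PBS by -0.85 ± 0.29 (adjusted p = 0.420) and from untreated skin by -1.31 ± 0.29 (adjusted p = 0.0643), and neither difference passed. The difference from untreated skin passed with the library code series as a term (adjusted p = 0.00767) and without WT_PBS replicate 3 (adjusted p = 0.0468). Neither setting changed the difference itself, which stayed at -1.31. Within the first and second series it was -1.25 and -1.44, and the difference from PBS was -0.77 and -1.01. These comparisons share groups, so they are not independent of each other. Within the second series of library codes, the 3 labelled libraries held 3.93 times the Btc of the single WT_Oxarol library and 1.74 times that of the single WT_PBS library. With that series alone the adjusted p was 0.0760 against WT_Oxarol and 0.165 against WT_PBS, with 1 wild type library a group that is assumed to vary like the others. The higher level against WT_Oxarol passed in 19 of 20 alternatives. Those that left out only untreated or PBS libraries could not change this difference, only its standard error and adjusted p. Leaving out WT_PBS replicate 1 or 2, or the library labelled VDRcKO_Oxarol replicate 2 or 3, ended the call against WT_PBS, with adjusted p-values of 0.0697, 0.0774, 0.0548 and 0.0584.

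Markers of several other skin compartments were also higher in the libraries labelled VDRcKO_Oxarol than in WT_Oxarol. In that comparison 8.71% of all genes tested passed as higher. The summed level of 19 hair follicle genes, mostly hair keratins and root sheath keratins, was 1370, 741 and 320 FPKM in these libraries and 84.7, 23.2 and 23.4 FPKM in WT_Oxarol, and 15 of the 19 genes passed the test. It was also high in WT_untreated replicate 3, at 204 FPKM, and in WT_PBS replicate 3, at 375 FPKM. These 2 libraries also had the highest Btc of their groups, at 12.7 and 9.22 FPKM. In WT_Oxarol, however, the library with the highest hair follicle sum was not the one with the highest Btc. Among the labelled libraries the order was the reverse of that of Btc. Replicate 3 is the second-series library of each wild type group, and it had the highest Btc in WT_Oxarol too, at 4.08 FPKM. The labelled libraries are all of the second series as well, and the within-series values of Btc are given above. Summed fibroblast markers were at 3344 to 4039 FPKM against 2223 to 2873 FPKM in WT_Oxarol, with 4 of 8 genes passing. Macrophage and monocyte markers were at 666 to 882 against 378 to 489 FPKM (4 of 8), cartilage markers at 156 to 168 against 68.3 to 104 FPKM (6 of 7), and T cell markers at 40.2 to 41.5 against 24.6 to 27.9 FPKM (2 of 4). In the other lists a smaller share of the genes, or none, passed as higher. The count was 2 of 9 for suprabasal keratinocyte, 2 of 6 for endothelium and 1 of 5 for Langerhans cell markers. It was 1 of 8 each for sebaceous gland and activated epidermis markers. None passed among the 8 basal keratinocyte, 6 mast cell and basophil, 3 neutrophil, 7 striated muscle and 5 adipocyte markers tested. No gene of the hair follicle list was at 0 in a whole group, whereas 1 cartilage gene was. The part of these cell types in the Btc result was not tested. In bulk skin, a change in the number of cells of a type cannot be told apart from a change in RNA per cell, here and for each gene below.

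**Figure D2:**
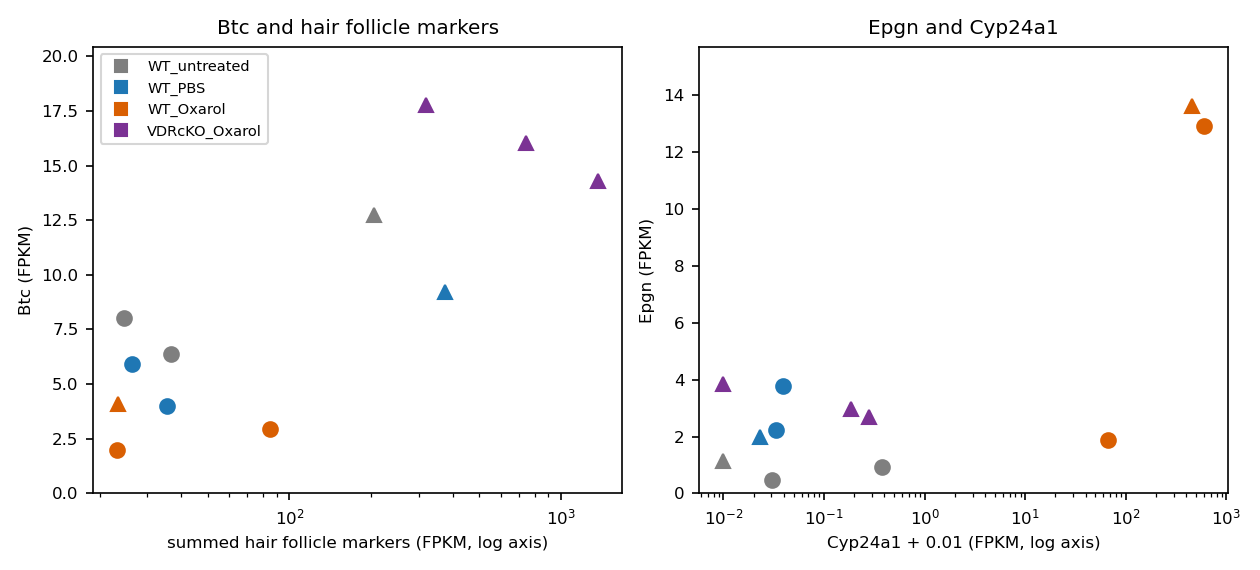
Left, Btc (FPKM) against the summed level of 19 hair follicle markers (FPKM, log axis). Right, Epgn (FPKM) against Cyp24a1 plus 0.01 FPKM (log axis). Each symbol is 1 library, coloured by group, with circles for the first and triangles for the second series of library codes. The labelled VDRcKO_Oxarol libraries lay highest in Btc, their hair follicle sums ran from 320 to 1370 FPKM, and WT_Oxarol replicate 1, with 66.2 FPKM of Cyp24a1, stood at 1.87 FPKM of Epgn.

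Ereg, which encodes epiregulin, a ligand that activates EGF receptor and ERBB4, was low in both ointment groups. It stood at 7.19, 5.18 and 7.25 FPKM in untreated skin, at 5.01, 8.24 and 9.99 FPKM after PBS, at 4.73, 2.51 and 2.74 FPKM after Oxarol, and at 2.73, 3.93 and 3.73 FPKM in the libraries labelled VDRcKO_Oxarol. All 6 ointment libraries lay below all 6 libraries of untreated and PBS-treated skin. The mean after Oxarol was 2.33-fold lower than after PBS, with a difference of -1.01 ± 0.25 (95% interval -1.56 to -0.46, unadjusted p = 0.00205, limma adjusted p = 0.177) that did not pass. None of the 8 tested genes passed in WT_Oxarol versus WT_PBS, in which 0.306% of all genes tested passed, 43 in limma, and 1047 had an unadjusted p under 0.05. Against WT_PBS, Ereg was lower in the libraries labelled VDRcKO_Oxarol, with a difference of -0.94 ± 0.25 (adjusted p = 0.0310). Of the 8 tested genes, Ereg passed in the lower and Btc in the higher direction in this comparison, in which 16.3% of all genes tested passed (10.8% higher and 5.49% lower). Btc, Ereg, Hbegf, Tgfa and Egf were the 5 tested genes without overlap between these groups, against 47.4% of all genes tested. The Ereg call was lost in 8 of 20 alternatives, among them without WT_PBS replicate 2 or 3 (adjusted p = 0.106 and 0.0831), without any 1 of the labelled libraries (0.102, 0.0589 and 0.0629 for replicates 1, 2 and 3) and within the second series alone (0.136).

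Hbegf encodes heparin-binding EGF-like growth factor, which keratinocytes release early after wounding. It was measured at 5.68, 3.36 and 7.50 FPKM in untreated skin, at 6.75, 6.40 and 9.92 FPKM after PBS, at 3.71, 4.58 and 4.05 FPKM after Oxarol, and at 3.38, 5.02 and 3.93 FPKM in the libraries labelled VDRcKO_Oxarol. Both ointment groups lay below all PBS libraries and overlapped with untreated skin. The difference from WT_PBS was -0.75 ± 0.24 in WT_Oxarol (adjusted p = 0.356) and -0.76 ± 0.24 in the libraries labelled VDRcKO_Oxarol (adjusted p = 0.0515). The second of these passed in 7 of 20 alternatives. Among them were quantile normalization (-0.94, adjusted p = 0.0224), median-of-ratios scaling (-0.84, adjusted p = 0.0369), and leaving out untreated replicate 1, 2 or 3. Without an untreated library the difference stayed at -0.76, and only its standard error and adjusted p changed.

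Tgfa encodes transforming growth factor alpha, an autocrine growth factor of keratinocytes. It stood at 3.27, 4.69 and 5.73 FPKM in untreated skin, at 5.74, 4.78 and 5.56 FPKM after PBS, at 3.93, 3.21 and 4.28 FPKM after Oxarol, and at 4.10, 3.75 and 3.54 FPKM in the libraries labelled VDRcKO_Oxarol. The 6 ointment libraries again lay below the 3 PBS libraries. The difference from WT_PBS was -0.41 ± 0.16 in each ointment group (adjusted p = 0.538 for WT_Oxarol and 0.10 for the labelled libraries), and the second passed in 3 of 20 alternatives. Within the first and second series the WT_Oxarol to WT_PBS difference was -0.45 and -0.31, and within the second the labelled libraries differed from WT_PBS by -0.45.

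Ereg, Hbegf and Tgfa thus showed no overlap between WT_Oxarol and WT_PBS, 3 of the 8 tested genes, where 15.9% of all genes tested showed none. In the libraries labelled VDRcKO_Oxarol these 3 genes were close to WT_Oxarol in level. Ereg differed by 0.07 ± 0.25 (95% interval -0.48 to 0.62, adjusted p = 0.877), Hbegf by -0.01 ± 0.24 (-0.53 to 0.51, adjusted p = 0.985) and Tgfa by 0.00 ± 0.16 (-0.35 to 0.35, adjusted p = 0.995). The signs of all 3 changed under other scalings or without single libraries, and no direction is read for them. Within the first series of library codes the Oxarol to PBS difference was -0.73 for Ereg and -0.56 for Hbegf, and within the second, with 1 library a group, -1.55 and -1.11. In the second series the labelled libraries differed from WT_Oxarol by 0.24 for Ereg, 0.01 for Hbegf and -0.14 for Tgfa. Summed basal keratinocyte markers were at 3703 to 4382 FPKM after PBS, 2834 to 4029 FPKM after Oxarol and 2999 to 3249 FPKM in the labelled libraries. These sums rest mostly on a few abundant keratins, which did not move together. Krt15, 1 of these 8 markers, was at 1672 to 2110 FPKM after PBS and 814 to 1354 FPKM after Oxarol. It was at 1114 to 1218 FPKM in the labelled libraries. Krt14, another of the 8, was at 1167 to 1799 FPKM after PBS, 1417 to 1837 FPKM after Oxarol and 1197 to 1406 FPKM in the labelled libraries. Between WT_Oxarol and WT_PBS 2 of the 8 markers lay above 0, the median difference was -0.22, and none passed. The part of basal keratinocyte content in these differences was not tested.

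**Figure D3:**
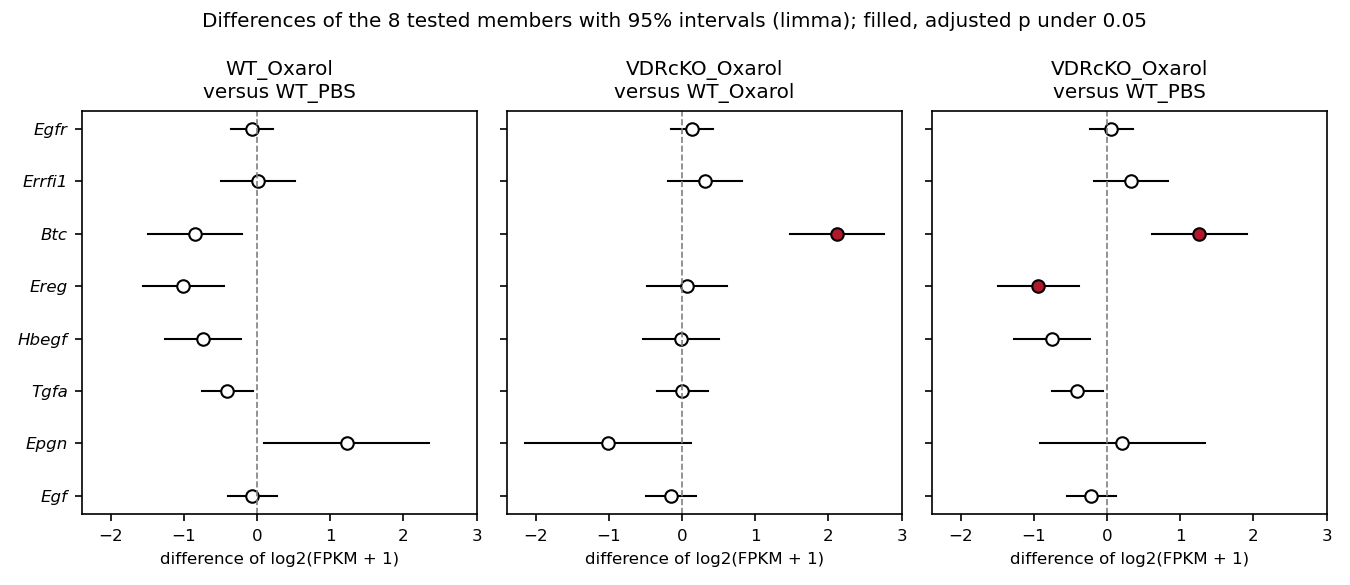
Differences of log2(FPKM + 1) (horizontal axis) for the 8 tested genes (rows) in 3 comparisons. Points are limma estimates, lines are 95% intervals, and filled points have an adjusted p under 0.05. Btc was higher in the libraries labelled VDRcKO_Oxarol in both of their comparisons, Ereg was lower against WT_PBS, and no gene passed in WT_Oxarol versus WT_PBS.

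Epgn encodes epigen, a ligand of low affinity for the receptor, and its WT_Oxarol libraries ranged from 1.87 to 13.6 FPKM. It was measured at 0.937, 0.461 and 1.13 FPKM in untreated skin, at 3.79, 2.23 and 1.97 FPKM after PBS, at 1.87, 12.9 and 13.6 FPKM after Oxarol, and at 3.84, 2.68 and 2.98 FPKM in the libraries labelled VDRcKO_Oxarol. Oxarol replicates 2 and 3 lay above all other libraries, while replicate 1 lay below all PBS libraries. The group mean was 3.56 times that of PBS, but the difference of 1.22 ± 0.51 (95% interval 0.09 to 2.35, limma adjusted p = 0.618) did not pass. The same replicate 1 had the lowest Cyp24a1 of its group, at 66.2 FPKM, and the highest Ereg, at 4.73 FPKM.

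Leaving out WT_Oxarol replicate 1 changed the Epgn calls. It held the lowest Epgn of its group, so larger differences without it follow by construction, and these values are a description. The difference was then 1.99 from WT_PBS (limma adjusted p = 0.00411) and 2.97 from untreated skin (adjusted p = 0.000300). All genes called rose with it, from 43 to 132 and from 184 to 254. Between the libraries labelled VDRcKO_Oxarol and WT_Oxarol, Epgn then differed by -1.79 (adjusted p = 0.00654), against -1.01 ± 0.51 (adjusted p = 0.196) with all libraries. All genes called there fell from 1848 to 1061. Over all libraries, Epgn in WT_Oxarol was 11.3 times its level in untreated skin, with no overlap, and the difference of 2.20 ± 0.51 had an adjusted p of 0.0685. None of the 8 tested genes passed between WT_Oxarol and untreated skin, where 1.31% of all genes tested passed (184 in limma, and 2403 at an unadjusted p under 0.05). Epgn, Btc and Ereg were the 3 without overlap, against 18.8% of all genes tested. The level after PBS was 3.16 times that in untreated skin, again without overlap (0.98 ± 0.51, adjusted p = 0.579). This standard error takes in the spread of all 4 groups. The SD of Epgn was 0.983 FPKM after PBS, 0.343 FPKM in untreated skin and 6.59 FPKM after Oxarol in the wild type. Within the first series of library codes Oxarol and PBS differed in Epgn by 0.69, and within the second by 2.30. The difference between Oxarol and untreated skin was 1.91 and 2.78, and the labelled libraries differed from WT_Oxarol by -1.82 in the second series. Summed markers of activated epidermis, such as Krt6a and Krt16, were at 277 to 305 FPKM in untreated skin, 355 to 665 FPKM after PBS, 599 to 824 FPKM after Oxarol and 577 to 950 FPKM in the labelled libraries. Krt17, 1 of these 8 markers, was at 548, 450 and 316 FPKM in the labelled libraries and 193, 172 and 156 FPKM in WT_Oxarol. Between the labelled libraries and WT_Oxarol the median difference of the 8 markers was -0.57. In that comparison 3 of them lay above 0, 1 passed as higher and 1 as lower. Of the 8 markers 7 were higher in WT_Oxarol than in untreated skin, and none passed between WT_Oxarol and WT_PBS. Their part in the Epgn values was not tested.

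Areg, which encodes amphiregulin, was low in all libraries. It stood at 0.193, 0.442 and 0.804 FPKM in untreated skin, at 0.460, 0.215 and 0.579 FPKM after PBS, at 0.157, 1.94 and 1.74 FPKM after Oxarol, and at 0.997, 0.505 and 0.272 FPKM in the libraries labelled VDRcKO_Oxarol. The 2 Oxarol libraries that were high in Epgn were also the 2 highest in Areg, and they were the only 2 libraries at or above 1 FPKM, so Areg did not enter the test. The depth estimate puts these values at about 53.8 fragments in Oxarol replicate 2 and 14.7 in replicate 3, and at 2.12 to 5.36 fragments in the labelled libraries. Without the filter on low values the difference between WT_Oxarol and WT_PBS was 0.58 (adjusted p = 0.907), and that between the labelled libraries and WT_Oxarol was -0.43 (adjusted p = 0.454). Single libraries moved both values. The first ran from 0.34 without WT_Oxarol replicate 2 to 1.009 without WT_Oxarol replicate 1, and the second from -0.19 to -0.86 without the same libraries. Within the first and second series WT_Oxarol and WT_PBS differed by 0.47 and 0.80, and the labelled libraries differed from WT_Oxarol by -0.81 in the second.

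Egf, which encodes the founding ligand of the family and is made mainly in kidney and salivary gland, was low in all libraries. It stood at 0.674, 1.20 and 1.74 FPKM in untreated skin, at 1.15, 0.829 and 0.885 FPKM after PBS, at 0.822, 0.898 and 0.871 FPKM after Oxarol, and at 0.655, 0.70 and 0.685 FPKM in the libraries labelled VDRcKO_Oxarol. It entered the test through 3 libraries only, 2 of them untreated. The labelled libraries lay below all Oxarol libraries, but the difference of -0.15 ± 0.15 (adjusted p = 0.525) did not pass, and it was -0.16 within the second series. WT_Oxarol and WT_PBS differed by -0.09 and -0.01 within the first and second series. Egf and Btc were the 2 tested genes without overlap in this comparison, where 42.2% of all genes tested showed none.

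The order of the ligands by mean level differed between the groups. In untreated skin it ran from Btc (9.05 ± 3.30 FPKM, SD, n = 3) through Ereg, Hbegf and Tgfa to Egf, Epgn and Areg, and each neighbour in this order overlapped with the next except Tgfa and Egf. After PBS it ran from Ereg (7.75 ± 2.53 FPKM) through Hbegf and Btc to Tgfa, each overlapping with the next. Epgn, Egf and Areg followed, each without overlap with the gene before it. After Oxarol in the wild type Epgn came first (9.47 ± 6.59 FPKM), and Hbegf, Tgfa, Ereg and Btc followed with overlapping values between 1.99 and 4.73 FPKM. In the libraries labelled VDRcKO_Oxarol Btc came first, above every value of the other ligands, and Hbegf, Tgfa, Ereg and Epgn followed with overlapping values between 2.68 and 5.02 FPKM.

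The sum of the 7 ligand transcripts overlapped between all groups, while its make-up differed. The sum was 28.2 ± 7.83 FPKM in untreated skin, 31.2 ± 6.08 FPKM after PBS, 25.9 ± 6.86 FPKM after Oxarol and 31.8 ± 1.62 FPKM in the libraries labelled VDRcKO_Oxarol (SD, n = 3 each). Btc made up 31.6% ± 2.65, 19.9% ± 4.62, 12.1% ± 4.67 and 50.2% ± 3.34 of it in these groups, in the same order. The share of Epgn was 2.93% ± 0.750, 8.88% ± 4.01, 33.3% ± 19.9 and 10.03% ± 2.44, and it ran from 10.3% to 46.1% within the Oxarol group. Shares of a sum move together by construction, so they are a description and were not tested.

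**Figure D4:**
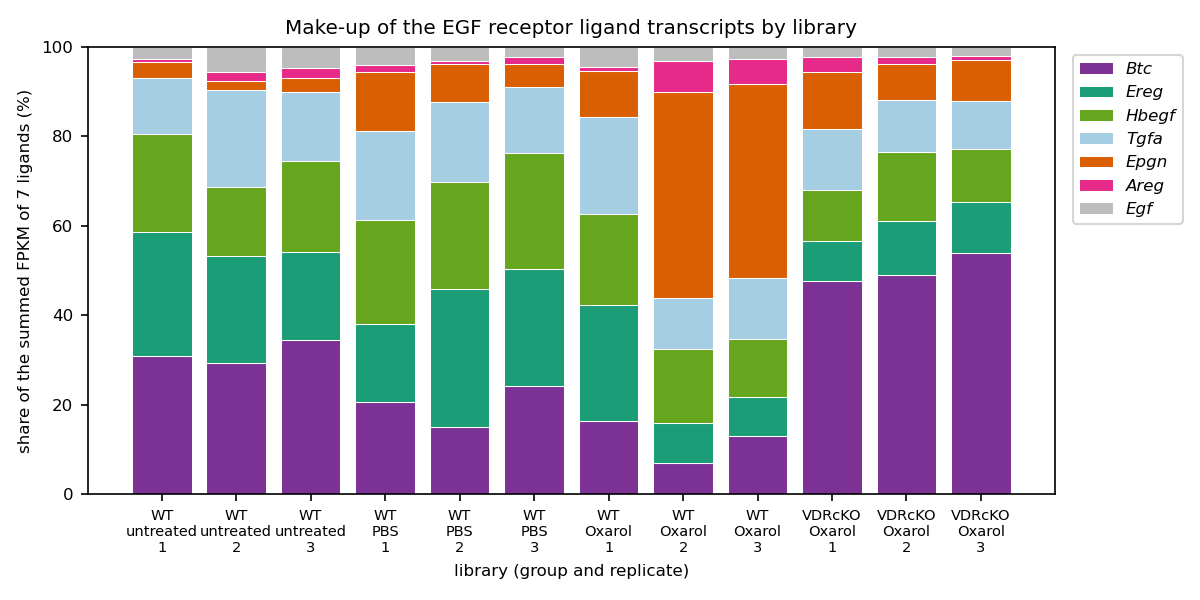
Share of each ligand in the summed FPKM of 7 EGF receptor ligands (vertical axis, percent) in each of the 12 libraries (horizontal axis). Btc was 47.6% to 54.0% of the sum in the libraries labelled VDRcKO_Oxarol and 7.09% to 16.3% in WT_Oxarol, where Epgn reached 46.1% in replicate 2.

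After PBS none of the 8 tested genes differed from untreated skin past the threshold, in a comparison where 0.00711% of all genes tested passed, which is 1 gene in limma, with 1312 at an unadjusted p under 0.05. Epgn and Errfi1 were the 2 tested genes whose groups did not overlap, against 13% of all genes tested. The other differences on the log2(FPKM + 1) scale were 0.45 ± 0.24 for Hbegf (adjusted p = 0.579) and -0.46 ± 0.29 for Btc (adjusted p = 0.646). Tgfa and Ereg differed by 0.22 and 0.18, and Egfr and Egf by 0.11 and -0.15.

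The pathway around the receptor was read from 5 lists, and none of their genes passed between WT_Oxarol and WT_PBS. The lists held 4 tested genes of the receptor's ERBB partners and the neuregulins, 11 of ligand shedding, 23 of receptor adaptors and the RAS to ERK cascade, 20 of feedback inhibitors and 21 of ERK-induced genes. Their median differences were 0.08, 0.00, -0.04, -0.06 and -0.17 in that order, against 0.01 for all genes tested. The gene of smallest p in each was Nrg4, a ligand of ERBB4 (0.17 ± 0.22, adjusted p = 0.992), Adam10, a sheddase of betacellulin and EGF (0.35 ± 0.09, adjusted p = 0.170), Nras, a RAS GTPase (-0.30 ± 0.08, adjusted p = 0.240), Spry1, a Sprouty inhibitor (-0.54 ± 0.22, adjusted p = 0.573), and Fosl1, a subunit of AP-1 (-0.64 ± 0.24, adjusted p = 0.490).

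Between the libraries labelled VDRcKO_Oxarol and WT_Oxarol, 17 of 78 pathway genes passed, 13 higher and 4 lower, against 13.1% of all genes tested (8.71% higher and 4.43% lower). Adam12 is left out of these counts, since it met the filter on low values through the labelled libraries alone. Feedback inhibitors accounted for 5 of the higher genes and 1 lower gene of 20, with a median difference of 0.40 against 0.08 for all genes tested. Lrig1, a membrane protein that promotes degradation of the EGF receptor, was at 7.40 ± 0.617 FPKM against 3.19 ± 0.980 FPKM (SD, n = 3 each), higher by 1.03 ± 0.22 (adjusted p = 0.0200). Dusp5 and Dusp6, phosphatases that inactivate ERK, were higher by 0.63 ± 0.13 (adjusted p = 0.0194) and 0.56 ± 0.14 (adjusted p = 0.0295). Sh3kbp1, an adaptor in receptor endocytosis, was higher by 0.42 ± 0.08 (adjusted p = 0.0161). The remaining 2, named after their values were seen, were Socs5 at 0.44 (adjusted p = 0.0366) and Spry2 at -0.50 (adjusted p = 0.0336). Of 20 alternatives, 4 ended the call of Sh3kbp1, 6 each those of Lrig1 and Dusp5, 7 that of Spry2, 8 that of Dusp6 and 13 that of Socs5.

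ERK-induced genes accounted for 5 higher and 2 lower of 21, with a median difference of 0.23. Egr2, a zinc finger transcription factor that is also a hair follicle and immune cell gene, was at 35.9 ± 1.58 FPKM against 12.1 ± 1.86 FPKM (SD, n = 3 each), higher by 1.499 ± 0.16 (adjusted p = 0.00230), and it passed in all 20 alternatives. Ier3, an early response gene, was higher by 0.67 ± 0.14 (adjusted p = 0.0187), Jun, a subunit of AP-1, by 0.86 ± 0.23 (adjusted p = 0.0362), and Emp1, an epithelial membrane protein, by 0.26 ± 0.07 (adjusted p = 0.0307). Outside the naming rule, Etv5 was higher by 0.56 (adjusted p = 0.0429), and Ier2 and Plaur were lower, at -0.42 (adjusted p = 0.0419) and -0.62 (adjusted p = 0.0478). The list did not move in 1 direction. Of 20 alternatives, 6 ended the call of Ier3, 9 that of Emp1, 10 that of Jun, 11 that of Ier2, 13 that of Etv5 and 15 that of Plaur.

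Of 10 shedding genes without Adam12, 1 was higher and none lower, with a median of 0.29. It was Timp3, a metalloprotease inhibitor, higher by 0.53 ± 0.15 (adjusted p = 0.0461). Adam12, a metalloprotease that can release HB-EGF and is made by mesenchymal cells, was at 1.19 ± 0.183 FPKM against 0.183 ± 0.0836 FPKM (SD, n = 3 each). It had to differ to be tested at all, so these levels are a description. In the RAS to ERK cascade 2 of 23 were higher and 1 lower. Mapk3, which encodes ERK1, and the kinase gene Src were higher by 0.75 ± 0.22 (adjusted p = 0.0488) and 0.57 ± 0.16 (adjusted p = 0.0390), and Nras was lower at -0.45 ± 0.08 (adjusted p = 0.0124). No gene of the 4 partners and neuregulins passed, and their smallest p was that of Erbb3, a receptor partner (0.40 ± 0.16, adjusted p = 0.122). The calls of Timp3, Src and Mapk3 were each lost in 16 of 20 alternatives and that of Nras in 1. The fibroblast, macrophage and hair follicle markers given above moved with these genes too, and their part was not tested.

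**Figure D5:**
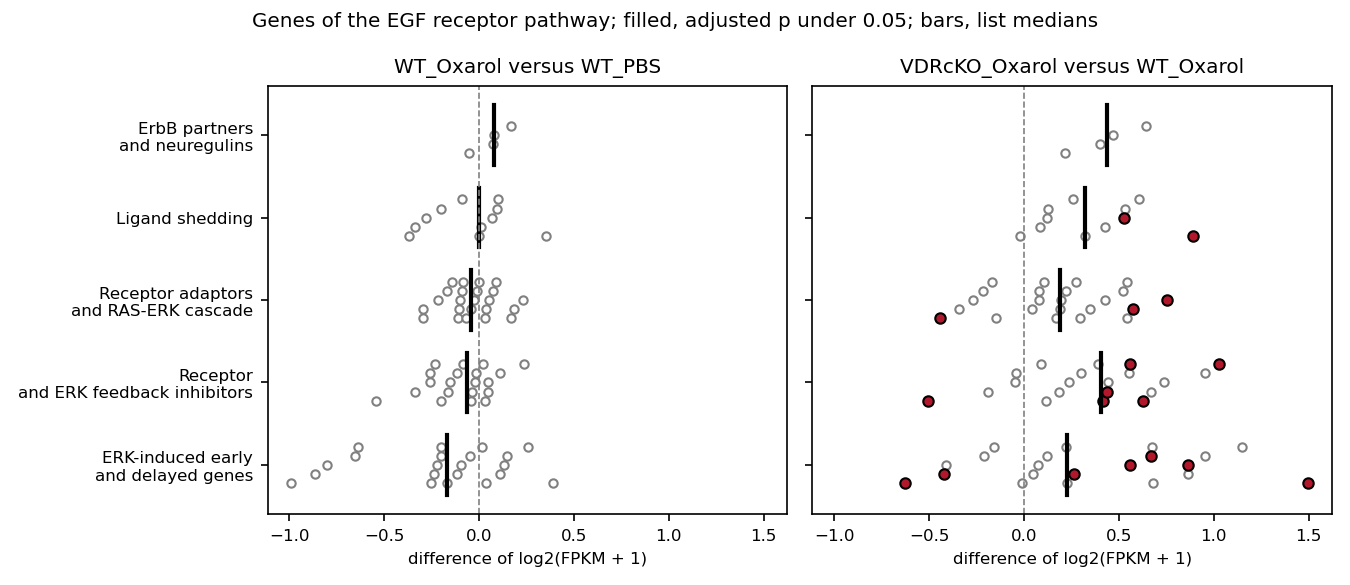
Differences of log2(FPKM + 1) (horizontal axis) of the genes of 5 pathway lists (rows) in 2 comparisons. Each point is 1 gene, filled points have an adjusted p under 0.05, and vertical bars mark the medians of the lists. In WT_Oxarol versus WT_PBS no point is filled, and in the right panel 14 genes, Adam12 among them, lie filled to the right of 0 and 4 to the left.

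The coding genes that flank the cluster on chromosome 5 were looked at after the values of the ligands were known. Mthfd2l, a mitochondrial folate enzyme gene next to Epgn, was at 5.35, 4.19 and 4.39 FPKM in the libraries labelled VDRcKO_Oxarol and at 3.06, 2.096 and 2.91 FPKM in WT_Oxarol, higher by 0.62 ± 0.13 (adjusted p = 0.0196). Parm1, next to Btc, was at 2.74, 3.66 and 3.24 FPKM against 1.13, 1.57 and 1.18 FPKM, higher by 0.88 ± 0.19 (adjusted p = 0.0209). The neighbours on both sides were higher in the labelled libraries, as Btc was, in a comparison where 8.71% of all genes tested passed as higher. Between them, Epgn differed by -1.01 and Ereg by 0.07, and neither passed. Areg, too low to be tested, differed by -0.43. The calls were lost in 5 and 7 of 20 alternatives, among them the second series alone (adjusted p = 0.195 and 0.117).

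Likeness over the 12 libraries is given as a description. It was measured as Pearson's r of log2(FPKM + 1), with Spearman's rho beside it, over libraries that share their groups and series. The 3 genes most like Egfr were Wdr45l (r = 0.909, rho = 0.916), Map4k5 (0.902, 0.937) and Myst4 (0.879, 0.867). The 3 most like Btc were a row whose symbol is the number 43532 in the deposited tables (r = 0.947, rho = 0.944), Ism1 (0.944, 0.951) and H2-K1, a class I histocompatibility gene (0.937, 0.930). The 3 most like Areg were Dgat1 (r = 0.894, rho = 0.741), Fam84a (0.890, 0.762) and Dnaja3 (0.886, 0.783), with Areg at or above 1 FPKM in 2 of the 12 libraries.

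RefSeq genes overlap Egfr (Gm39584 and Egfros), Ereg (Gm19610), Hbegf (Gm41698), Egf (6330410L21Rik) and Errfi1 (1700045H11Rik) in position. Whether the counting used strand is not given in the sources used here, so reads of these overlapping genes cannot be told apart, whereas none overlaps Areg, Tgfa, Btc or Epgn.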

How the data were processed

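Total RNA of 12 ear skin libraries was turned into cDNA for sequencing using NEBNext Ultra reagents, per the labels' protocols. The submitters' processing notes name TopHat2 2.0.8, Bowtie2 2.1.0, Cufflinks 2.1.1 and the mouse build mm9, without their roles or settings. The authors deposited 1 FPKM value per gene symbol and library, made from mapped fragments, per the labels, by these tools. No unit stands in the file headers, and FPKM was inferred from Cufflinks and from the values. Depth was estimated from the steps of FPKM multiplied by transcript length, for genes with 1 annotated transcript longer than 800 bases.

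A gene was tested if it reached 1 FPKM in 3 or more of the 12 libraries, which kept 14059 genes. limma 3.58.1 in R 4.3.3 was fitted to log2(FPKM + 1) with 4 group means and a variance trend, and the p-values of each of 5 comparisons were adjusted over all genes tested (Benjamini-Hochberg, threshold 0.05). The spread of a gene was estimated over all 4 groups. A library of a group outside a comparison thus affects its standard errors and p-values, and leaving it out cannot change the difference. On this scale differences of low genes come out too small. A ± after a difference is limma's standard error, and ratios are of mean FPKM. The steps were tested on simulated data. It is not stated whether a group's libraries came from different mice, so the p-values reflect the spread between these samples alone, and it may be technical. Replicate numbers follow the order of deposit.

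All 9 genes are described by their values in each group, and their differences are not given for every comparison. From each pathway list up to 4 genes that passed were named in order of p, or the gene of smallest p where none passed, and for likeness the 3 genes of highest r were named for Egfr, Areg and the gene with the smallest p. The genes and lists were chosen with earlier results of these data known. The listed symbols Cnmd, Flg, Hras, Krt72, Ly6g and Trdc were not found under these names. Promoters come from RefSeq's GRCm38.p6 and played no part in the measurements. Alternatives were a pseudocount of 0.1 FPKM, no filter, scaling by quantile normalization or by median of ratios, a fit of only the compared groups, a term for the library code series, only the first of these series, and leaving out each library. Chosen after seeing the data were the second series alone and leaving out the 2 wild type libraries highest in hair follicle markers. Plots were made in matplotlib 3.10.9.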

Additional observations from a re-analysis of the deposited data

How the results depend on the processing

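Areg rested on an estimated 2.12 to 74.9 fragments a library, which limits its precision. No paired analysis was possible because the labels carry no replicate numbers that the groups share. Among 20 alternatives, Btc stayed higher in the libraries labelled VDRcKO_Oxarol than in WT_Oxarol, at 1.65 to 2.42. It lost its call with the second series of library codes alone, which leaves 0 genes of the set higher and 53 genes called in all, against 1848. The cause of each change below was not tested.

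The count of genes called between WT_Oxarol and WT_PBS, 43, became 0 in a fit of those 2 groups (limma, 1401 genes at an unadjusted p under 0.05), 8 in the first series alone and 21 without both wild type libraries high in hair follicle markers. Without single libraries it ran from 13 (without WT_Oxarol replicate 3) to 132 (without WT_Oxarol replicate 1). Between the libraries labelled VDRcKO_Oxarol and WT_Oxarol it became 283 with the series as a term and ran from 322 (without WT_Oxarol replicate 2) to 3433 (without WT_untreated replicate 1). Between WT_PBS and untreated skin the single gene called became 5 with a pseudocount of 0.1 FPKM, 2 with no filter, 6 in the fit of 2 groups, 13 in the first series alone and 10 without the hair-high libraries, and 1 to 6 (without WT_PBS replicate 3) without single libraries. Between WT_Oxarol and untreated skin the 184 genes became 90 with no filter, 12 in the fit of 2 groups, 26 in the first series alone and 55 without the hair-high libraries, and ran from 34 (without WT_Oxarol replicate 2) to 254 (without WT_Oxarol replicate 1). Between the labelled libraries and WT_PBS the 2286 genes became 3737 in the fit of 2 groups, 611 with the series as a term and 86 in the second series alone, and ran from 543 (without WT_PBS replicate 1) to 3875 (without WT_untreated replicate 1). Scaling moved the median of all genes from 0.08 to -0.04 (quantile) or 0.00 (median-of-ratios) against WT_Oxarol, where 1225 higher and 623 lower genes became 820 and 1292, or 819 and 1149. Against WT_PBS it moved from 0.09 to -0.04 or 0.00, and 1514 higher and 772 lower became 968 and 1620, or 1027 and 1370.

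Counts of the set's genes moved as well. Those lower in the labelled libraries than in WT_PBS, 1, became 3 with quantile normalization, 2 with median-of-ratios scaling, 3 in the fit of 2 groups, 0 in the second series alone and 0 without the hair-high libraries, and 0 to 3 without single libraries. Those higher became 0 in the second series alone, and 0 to 1 without single libraries. With the series as a term 1 gene, Btc, was lower in WT_Oxarol than in untreated skin (adjusted p = 0.00767). Without single libraries 0 to 1 genes were higher (Epgn without WT_Oxarol replicate 1) and 0 to 1 lower (without WT_PBS replicate 3) in that comparison, 0 to 1 higher in WT_Oxarol than in WT_PBS, and 0 to 1 lower in the labelled libraries than in WT_Oxarol.

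Some signs changed. Between the labelled libraries and WT_Oxarol, quantile normalization gave Egfr -0.0132, Ereg -0.115 and Tgfa -0.196, median-of-ratios scaling gave Ereg -0.00618 and Tgfa -0.0740, the series as a term gave Ereg -0.0454 and Tgfa -0.161, and the second series alone gave Hbegf 0.00568 and Tgfa -0.140. Against WT_PBS, Egfr became -0.0868 with quantile normalization and -0.0313 with median-of-ratios scaling, and Epgn -0.0444 with the series as a term. Between WT_PBS and untreated skin Egf became 0.0461 in the first series alone and without the hair-high libraries, and Errfi1 between WT_Oxarol and WT_PBS became -0.0261 without the latter. Without single libraries the ranges that crossed 0 were, for WT_Oxarol against WT_PBS, Egfr -0.178 to 0.0112, Egf -0.111 to 0.00494, Errfi1 -0.143 to 0.269 and Mthfd2l -0.0429 to 0.168. For the labelled libraries against WT_Oxarol they were Ereg -0.0650 to 0.289, Hbegf -0.134 to 0.0956 and Tgfa -0.0903 to 0.0734, and against WT_PBS Areg -0.0264 to 0.299. For WT_PBS against untreated skin they were Egf -0.333 to 0.0220, Ereg -0.00339 to 0.432 and Areg -0.194 to 0.104, and for WT_Oxarol against untreated skin Egfr -0.0687 to 0.141. Areg had no test here, so these are values only.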
